A study of Mus musculus with 8 samples.

Results

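The 10 genes described here are immediate-early genes that encode subunits of the transcription factor AP-1 (*Fos*, *Fosb*, *Fosl1*, *Fosl2*, *Jun*, *Junb*, *Jund* and the related *Atf3*) and 2 zinc finger factors of the Egr family (*Egr1*, *Egr2*). They were chosen by gene symbol, as the rows of the count table whose Ensembl identifier belongs to these symbols. All 10 were among the 52325 genes of the table, and all 10 were among the 18174 genes tested. The libraries came from endometrium cut by laser capture from frozen uterine sections of 4 WT and 4 Thra1PV/+ mice, all in metestrus after the cycles had been synchronized. Thra1PV/+ mice carry the dominant negative PV mutation in an allele of *Thra*, which encodes a thyroid hormone receptor, in every tissue that uses the gene. The strain, and the age of the mice used for laser capture, are not given in the sources used here. Each library is a bulk sample of endometrium, so fewer cells of a type and less RNA per cell cannot be told apart. Library totals ran from 48791602 to 59818887 estimated counts, and the 10 genes held 0.0598% to 0.159% of them. *Thra* itself had 127, 45.8, 67.8 and 79.96 CPM (estimated counts scaled to a common library size, after TMM normalization) in Thra1PV/+ libraries 1 to 4 and 110.0, 104, 50.3 and 47.4 CPM in WT libraries 1 to 4, and these counts do not separate the mutant transcript from the normal transcript.

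Immediate-early genes are switched on within minutes of a growth factor, cytokine or stress signal, without new protein synthesis, by factors already bound near their start sites, among them SRF with its ternary complex partners and CREB. Their messenger RNAs are short-lived. Fos proteins bind DNA only as dimers with a Jun protein, whereas Jun proteins can also pair with each other, and Egr1 and Egr2 bind GC-rich sites through zinc fingers. In the uterus, *Fos*, *Jun* and *Egr1* are known as rapid responders to estrogen. The same genes respond to handling of tissue, so the difference between genotypes has to be read against the spread of libraries within a genotype.

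WT library 1 stood apart before any comparison was made. The 6 smooth muscle genes on the marker list (the most abundant was *Acta2*) summed to 12640 CPM in that library, against 596, 529 and 1094 CPM in WT libraries 2 to 4 and 308, 125, 151 and 638 CPM in Thra1PV/+ libraries 1 to 4. Fold changes, list medians and list counts by p-value that moved over 1.5 times without WT library 1 are given without it as well. Spreads within a genotype are given with all libraries only. *Krt8* of simple epithelium (401 to 1467 CPM) and *Col1a1* of stroma (151 to 1605 CPM) were found in every library. They show epithelium and stroma but do not by themselves identify endometrium.

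None of the 10 genes differed between Thra1PV/+ and WT endometrium beyond the spread of the libraries. A gene was called when edgeR's quasi-likelihood test gave it a fold change of at least 2 in either direction with an adjusted p-value no higher than 0.1. By this rule 0 of 10 members were called, beside 180 of 18174 tested genes (0.990%), 168 of them higher in Thra1PV/+ (0.924%). At an unadjusted p-value under 0.05 the count was again 0 of 10, against 9.77% of all tested genes, and DESeq2 and limma voom also called 0. For each of the 10 genes the 4 Thra1PV/+ libraries overlapped the 4 WT libraries. Genotypes without overlap were found for 6.04% of all tested genes, and without overlap and higher in Thra1PV/+ for 3.55%. Log2 fold changes (Thra1PV/+ minus WT) were positive for 6 members and negative for 4. They were positive for 8 without WT library 1 and for 3 without Thra1PV/+ library 2. With all libraries they ran from −0.73 to 0.76, with a median of 0.27 beside −0.05 over all tested genes. That median was −0.21 without Thra1PV/+ library 2 and −0.04 without WT library 2, so its sign rested on single libraries.

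**Figure D1:**
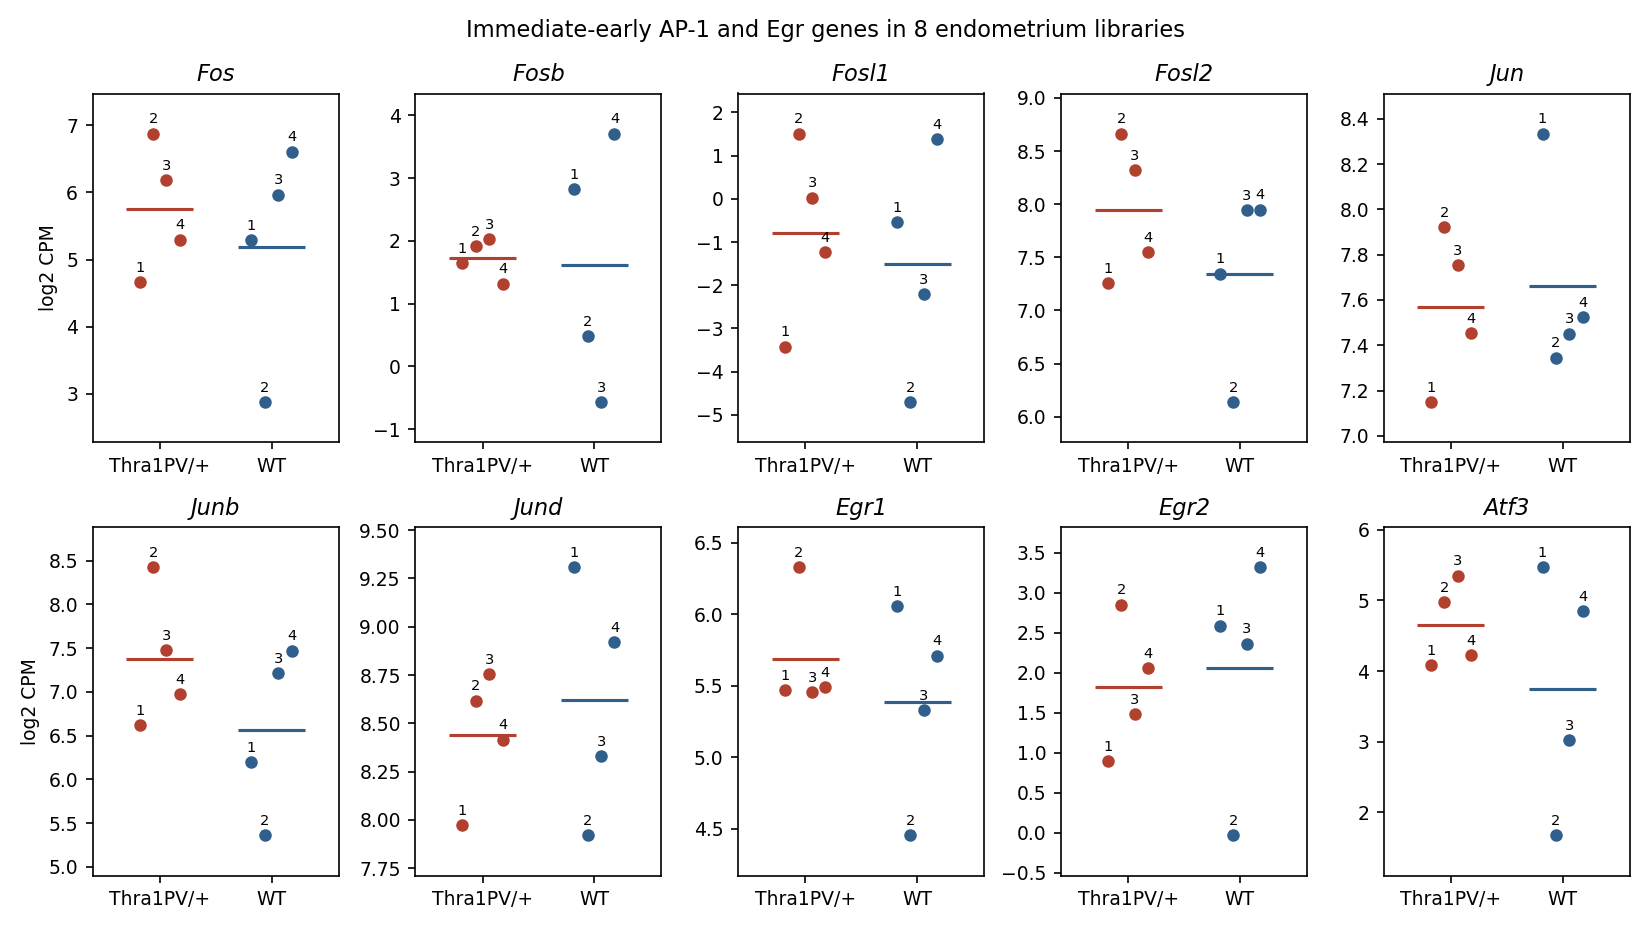
Each panel plots log2 CPM (vertical axis, each gene on its own scale) of a member in the 4 Thra1PV/+ and the 4 WT libraries; the digits are library numbers and the bars are genotype means. The genotypes overlap in all 10 panels, and WT library 2 is the lowest point in 8 of them.

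*Fos* encodes the founding partner of Jun in AP-1 (ENSMUSG00000021250.13, chromosome 12, 85473890 to 85477273 of GRCm38). It had 25.2, 117, 72.7 and 39.3 CPM in Thra1PV/+ libraries 1 to 4 and 39.0, 7.29, 62.5 and 97.3 CPM in WT libraries 1 to 4. Thra1PV/+ library 2 and WT library 4 were high, WT library 2 was far below all others, and the genotypes overlapped over most of their range. The log2 fold change was 0.30 (standard error 0.72, edgeR adjusted p = 0.936), a fold of 1.24 with a 95% interval from 0.392 to 3.89. Exchanging the genotype labels in all 70 ways, an exact permutation test that cannot give less than 0.0286, p was 0.600. Without Thra1PV/+ library 2 the log2 fold change was −0.17, without WT library 2 it was −0.02, and without WT library 4 it was 0.81.

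*Fosl2*, whose product Fra-2 is a late and more stable Fos protein, lies on chromosome 5, 32135801 to 32157842 (ENSMUSG00000029135.10). Its values were 153, 406, 319.9 and 187 CPM in Thra1PV/+ libraries 1 to 4 and 163, 70.5, 246 and 247 CPM in WT libraries 1 to 4. The order of libraries was close to that of *Fos*, with Thra1PV/+ libraries 2 and 3 on top and WT library 2 at the bottom. The log2 fold change of 0.55 (standard error 0.44, edgeR adjusted p = 0.755) was smaller than the spread within a genotype, and the exact permutation p was 0.343. The log2 value was 0.28 without Thra1PV/+ library 2. *Junb*, a Jun protein that restrains growth in many cells, had 98.5, 344, 178 and 126 CPM in Thra1PV/+ libraries 1 to 4 and 73.2, 41.0, 149 and 177 CPM in WT libraries 1 to 4 (ENSMUSG00000052837.6, chromosome 8, 84974484 to 84978718). Thra1PV/+ library 2 was again highest and WT library 2 lowest, but WT library 1 was also low here. With a log2 fold change of 0.76 (standard error 0.53, edgeR adjusted p = 0.707), *Junb* had the largest positive difference of the 10 members, with an exact permutation p of 0.257. The log2 value was 0.28 without Thra1PV/+ library 2 and 1.09 without WT library 4. *Junb* overlaps *Prdx2* on the opposite strand, which had up to 19396 counts in a library. The libraries are described as stranded, but whether strand was used in counting is not given in the sources used here, so reads of such overlaps are uncertain.

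*Jun* and *Jund* varied less. *Jun* encodes c-Jun, the strongest activator among Jun proteins (ENSMUSG00000052684.4, chromosome 4, 95049034 to 95052222), and had 142, 242, 216 and 175 CPM in Thra1PV/+ libraries 1 to 4 and 323, 163, 175 and 184 CPM in WT libraries 1 to 4. The highest value was that of WT library 1, the library rich in smooth muscle genes, and the other 7 lay between 142 and 242 CPM. The log2 fold change was −0.12 (standard error 0.27, edgeR adjusted p = 0.929) and turned to 0.20 without WT library 1 (adjusted p = 0.906); it was −0.25 without Thra1PV/+ library 2. *Jund*, whose product is made more evenly in resting cells, lies on chromosome 8, 70698949 to 70700616 (ENSMUSG00000071076.6) and had 251, 393, 432 and 341 CPM in Thra1PV/+ libraries 1 to 4 and 634, 242, 322 and 484 CPM in WT libraries 1 to 4. WT library 1 was again highest, and the lowest value was in WT library 2. Its log2 fold change of −0.25 (standard error 0.31, edgeR adjusted p = 0.860) became 0.06 without WT library 1 (adjusted p = 0.996) and −0.41 without WT library 2. *Jun* and *Jund* also overlap annotated genes on the opposite strand, *Junos* and *Gm11175*, with at most 400 and 177 counts in a library.

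**Figure D2:**
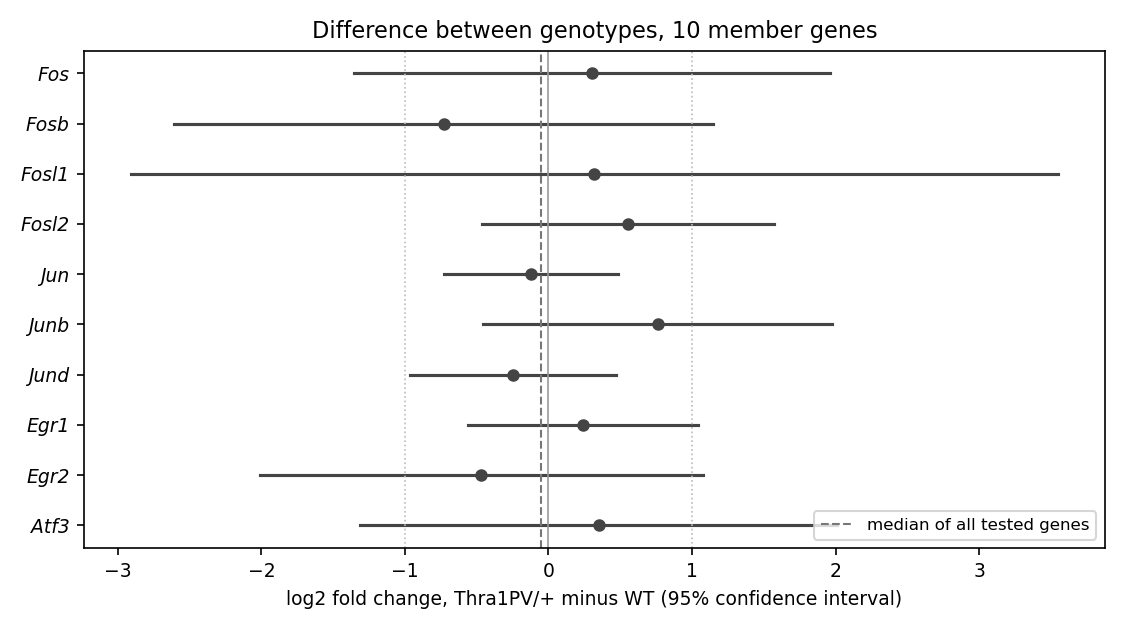
Points are log2 fold changes of the 10 members (horizontal axis, Thra1PV/+ minus WT, edgeR) and lines their 95% confidence intervals; the dashed line is the median of all tested genes, −0.05, and the dotted lines mark a fold change of 2 in either direction. Every interval crosses 0.

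The Egr genes gave the same picture. *Egr1* (ENSMUSG00000038418.7) encodes a zinc finger factor induced by growth signals and by estrogen, and had 44.2, 80.4, 43.8 and 45.0 CPM in Thra1PV/+ libraries 1 to 4 and 66.5, 21.9, 40.2 and 52.4 CPM in WT libraries 1 to 4. Thra1PV/+ library 2 lay above 3 nearly equal Thra1PV/+ libraries, and WT library 2 lay lowest of all 8. The log2 fold change was 0.24 (standard error 0.35, edgeR adjusted p = 0.884), 0.53 without WT library 1 and −0.03 without Thra1PV/+ library 2. *Egr2*, known for its part in myelination and in lymphocytes, was low, at 1.82, 7.16, 2.76 and 4.12 CPM in Thra1PV/+ libraries 1 to 4 and 5.97, 0.939, 5.09 and 9.92 CPM in WT libraries 1 to 4 (ENSMUSG00000037868.15, chromosome 10, 67535475 to 67542188). WT library 4 was highest and WT library 2 lowest, so the WT libraries enclosed the Thra1PV/+ libraries. The log2 fold change was −0.47 (standard error 0.67, edgeR adjusted p = 0.880) and ran from −0.92 without Thra1PV/+ library 2 to −0.02 without WT library 4.

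*Atf3*, a stress-induced factor that pairs with Jun proteins, had 16.9, 31.4, 40.7 and 18.6 CPM in Thra1PV/+ libraries 1 to 4 and 44.3, 3.14, 8.06 and 28.8 CPM in WT libraries 1 to 4 (ENSMUSG00000026628.13, chromosome 1, 191170296 to 191218039). The Thra1PV/+ libraries lay within the WT range, which reached from the lowest value, in library 2, to the highest, in library 1. The log2 fold change was 0.35 (standard error 0.73, edgeR adjusted p = 0.924), and the exact permutation p was 0.400. The fold change was 1.05 on the log2 scale without WT library 1 (adjusted p = 0.802) and 0.02 without WT library 2.

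*Fosb* and *Fosl1*, whose product is Fra-1, were the least abundant Fos genes. *Fosb* (ENSMUSG00000003545.3, chromosome 7, 19302696 to 19310051) ranged from 2.45 to 4.05 CPM in Thra1PV/+ and from 0.637 to 13.0 CPM in WT libraries, with library 3 at the bottom of the WT range and library 4 at the top. Its log2 fold change of −0.73 (standard error 0.82, edgeR adjusted p = 0.838) was 0.14 without WT library 4. *Fosl1* (ENSMUSG00000024912.5, chromosome 19, 5447547 to 5455946) had 3, 138, 48 and 22 counts in Thra1PV/+ libraries 1 to 4 and 34, 0, 9 and 122 counts in WT libraries 1 to 4. The count of 0 in WT library 2 allows up to 3 counts, or 0.0542 CPM. Both ends of the range were found in each genotype, and the log2 fold change of 0.32 had a standard error of 1.41 (edgeR adjusted p = 0.970). Without Thra1PV/+ library 2 it was −0.83, without WT library 2 it was −0.06, and without WT library 4 it was 1.93. *Fosl1* overlaps *Ccdc85b* on the opposite strand, which had up to 6039 counts in a library.

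Libraries of a genotype lay far apart for some members and close together for others. The SD of log2 CPM within a genotype, pooled over both genotypes, had a median of 1.03 over the 10 members and 0.453 over all tested genes. For *Fos* it was 1.34, above 92.6% of tested genes, and for *Atf3* 1.30, above 91.8%. *Egr1*, *Jund* and *Jun* lay near the middle of all tested genes, with 0.575, 0.498 and 0.401, above 60.4%, 54.0% and 44.9%. The difference in spread between members and other genes was not tested. The highest CPM was 16.1 times the lowest for *Fos*, 20.5 times for *Fosb* and 14.1 times for *Atf3*, but 2.27 times for *Jun*. For *Fos* and *Atf3*, most of this range was found within WT endometrium alone. The counts describe these libraries, and since the genes were picked as a list, nothing is read from them about other lists.

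High and low values fell in the same libraries for many members. WT library 2 was the lowest of all 8 libraries for 8 members, the exceptions being *Fosb* and *Jun*, and Thra1PV/+ library 1 was the lowest of its genotype for 8. Thra1PV/+ library 2 was the highest of all 8 for 5 (*Fos*, *Fosl1*, *Fosl2*, *Junb* and *Egr1*). WT library 1 was highest for *Jun*, *Jund* and *Atf3*, and WT library 4 for *Fosb* and *Egr2*. Over the 12132 tested genes whose log2 CPM averaged 2 or more, WT library 2 was lowest for 14.99% and Thra1PV/+ library 2 was highest for 12.7%. Averaged over the 10 members, log2 CPM relative to each gene's mean was −1.69 in WT library 2 and −0.61 in Thra1PV/+ library 1, and 0.96 in Thra1PV/+ library 2 and 0.90 in WT library 4. The extremes on each side thus came from both genotypes.

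**Figure D3:**
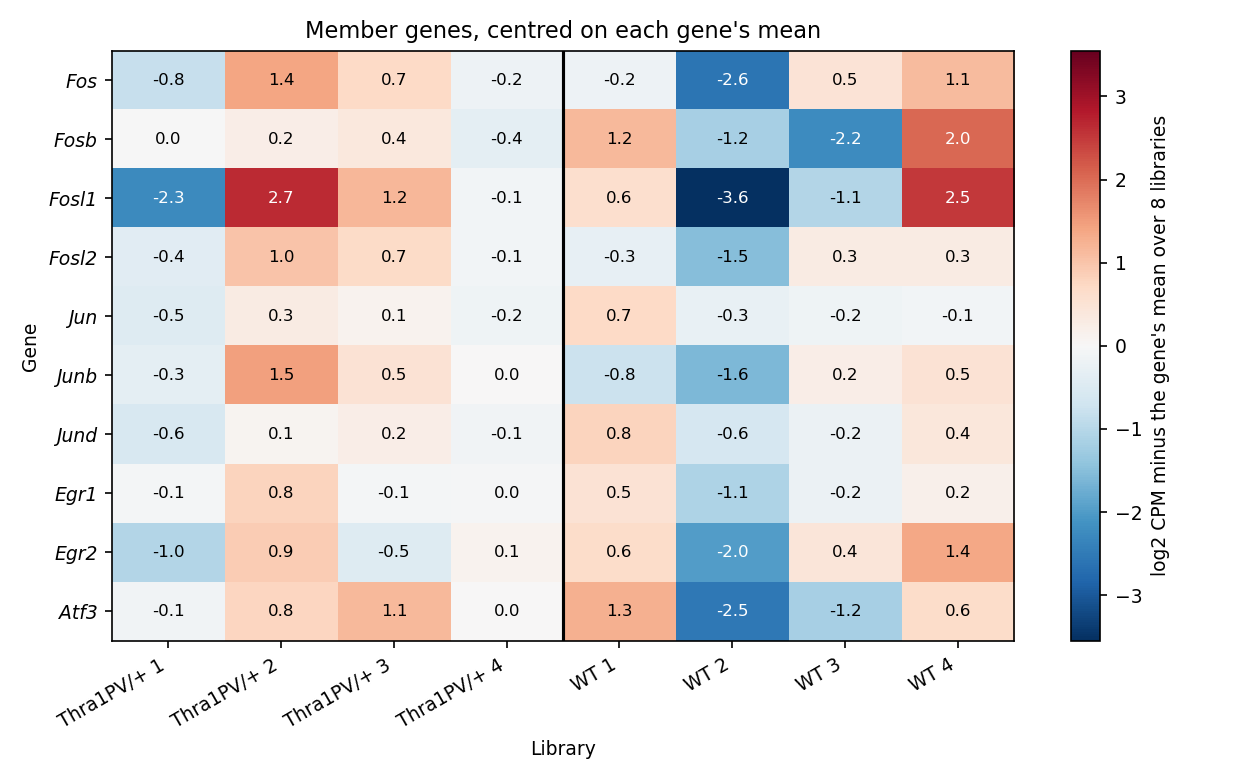
Colours and numbers give log2 CPM minus the gene's mean over the 8 libraries, for the 10 members (rows) in each library (columns); red is above and blue below the mean. The column of WT library 2 is below the mean for every member, and that of Thra1PV/+ library 2 is above it for every member.

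Co-variation with *Fos* was computed for the other 9 members over the 8 libraries, with permutation tests over all pairings and Benjamini-Hochberg adjustment over the 9 pairs. *Fosl2* followed *Fos* most closely (Pearson r = 0.966, permutation p = 0.000422, adjusted p = 0.00312; Spearman rho = 0.976, permutation p = 0.000397, adjusted p = 0.00357). The 2 libraries farthest from the median of *Fos* were WT library 2 and Thra1PV/+ library 2, and without them r was 0.863 (permutation p = 0.0292, n = 6). *Junb* had r = 0.928 (permutation p = 0.000694, adjusted p = 0.00312) and rho = 0.952 (permutation p = 0.00114, adjusted p = 0.00513), with r = 0.802 without those libraries (permutation p = 0.0556). *Fosl1* had r = 0.904 (permutation p = 0.00124, adjusted p = 0.00372) and rho = 0.905 (permutation p = 0.00456, adjusted p = 0.0137), and r = 0.791 without the extremes (permutation p = 0.0653). *Egr2* had r = 0.865 (permutation p = 0.00615, adjusted p = 0.0138) and rho = 0.762 (permutation p = 0.0368, adjusted p = 0.0828), and r = 0.644 without the extremes (permutation p = 0.174). Without WT library 2 alone, r of *Fos* and *Egr2* was 0.689 (permutation p = 0.0897). Centred within genotype, r with *Fos* was 0.982 for *Fosl2*, 0.952 for *Junb*, 0.902 for *Fosl1* and 0.925 for *Egr2*, so the relation was as close within genotypes.

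For *Egr1* and *Atf3* the relation rested mainly on WT library 2. *Egr1* had r = 0.790 (permutation p = 0.0273, adjusted p = 0.0491) and rho = 0.524 (permutation p = 0.197, adjusted p = 0.253), but r = −0.0533 without WT library 2 and Thra1PV/+ library 2, 0.411 without WT library 2 alone and 0.730 without Thra1PV/+ library 2 alone. *Atf3* had r = 0.730 (permutation p = 0.0435, adjusted p = 0.0652) and rho = 0.476 (permutation p = 0.243, adjusted p = 0.273), and r = 0.146 without both libraries, 0.237 without WT library 2 alone and 0.717 without Thra1PV/+ library 2 alone. *Jund*, *Fosb* and *Jun* had permutation p-values over 0.05. Their r was 0.602, 0.403 and 0.393 (permutation p = 0.111, 0.320 and 0.334), and their rho was 0.548, 0.429 and 0.571 (permutation p = 0.171, 0.299 and 0.151). Adjusted over the 9 pairs, the p-values of r were 0.143, 0.334 and 0.334. Without WT library 1, r of *Fos* and *Jund* was 0.862 (permutation p = 0.00655), and r of *Fos* and *Jun* was 0.693 (permutation p = 0.0903). Without WT library 3, r of *Fos* and *Fosb* was 0.707.

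The bases before the start sites of *Fos*, *Junb*, *Egr2* and *Jun* are shown to place the letter runs counted below, in members with such runs and in *Jun*, which has none. RefSeq start sites (GRCm38.p6) matched 8 of the 10 members, all but *Fosl1* and *Egr1*. Each line gives the 120 bases before a start site, 5′ to 3′ on the strand of the gene. Capitals mark the CRE half-site TGACG on either strand, a letter run found in sites of CREB and ATF factors, and the CArG box, which SRF binds.

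Fos, chr12:85473770-85473889, plus strand: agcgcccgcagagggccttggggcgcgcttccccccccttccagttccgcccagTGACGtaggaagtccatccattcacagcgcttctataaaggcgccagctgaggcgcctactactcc
Junb, chr8:84978749-84978868, minus strand: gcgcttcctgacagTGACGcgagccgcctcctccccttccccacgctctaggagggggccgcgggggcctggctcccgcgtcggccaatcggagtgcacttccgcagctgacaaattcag
Egr2, chr10:67537749-67537868, plus strand: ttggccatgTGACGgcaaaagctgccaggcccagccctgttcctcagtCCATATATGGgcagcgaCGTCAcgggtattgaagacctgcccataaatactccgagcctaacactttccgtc
Jun, chr4:95052223-95052342, minus strand: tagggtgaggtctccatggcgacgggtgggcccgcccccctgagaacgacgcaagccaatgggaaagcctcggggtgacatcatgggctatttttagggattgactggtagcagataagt

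None of the 4 stretches lies in an exon of GENCODE release M21. Those of *Fos*, *Junb* and *Jun* lie outside the annotated gene, and that of *Egr2*, before 1 of its 5 RefSeq start sites, lies inside the annotated gene. In the 250 bases before the start, TGACG on either strand was found for 5 of 8 members (*Fos*, *Fosb*, *Junb*, *Egr2* and *Atf3*) and in 17.8% of all 32851 RefSeq promoter windows of the same length. The full site TGACGTCA, which holds 2 overlapping half-sites, was found for 0 of 8 (all windows 1.55%), and so was the AP-1 site TGANTCA (all windows 6.75%). A CArG box was found for *Egr2* alone (all windows 1.47%), and the Egr site GCGNGGGCG for *Fosb* and *Fosl2* (all windows 4.70%). The 5 windows of *Egr2* counted as a single member. The half-site was found with and without co-variation with *Fos*: the window of *Fosl2*, the gene closest to *Fos*, had none, and that of *Fosb*, with r = 0.403, had it. The 120 bases before the start site of *Fosl2* lie wholly in an annotated exon, and the start site of *Jund* at 70697739 lies before the annotated gene, which begins at 70698949. These are matches of letters within a window and do not show binding. No match for a member, such as no CArG box for *Fos*, says only that these letters are not in the 250 bases searched.

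Levels were compared between genes on the deposited TPM scale, which accounts for transcript length. *Jund* was the most abundant member, with a mean of 589 TPM over the 8 libraries (404 to 1055), followed by *Junb* (136), *Jun* (94.6), *Fosl2* (46.0), *Fos* (37.3), *Egr1* (22.3), *Atf3* (14.9), *Egr2* (2.55), *Fosb* (1.72) and *Fosl1* (0.803 TPM). In this order 3 pairs of neighbours did not differ beyond their spread over libraries by an exact permutation test of the sign of the paired difference: *Junb* and *Jun* (p = 0.289), *Fos* and *Egr1* (p = 0.164) and *Egr2* and *Fosb* (p = 0.203). *Jund* was above *Junb* in all 8 libraries (p = 0.00781 by the same exact permutation test, its smallest value). Within the Jun family, *Jund* held 57.8% to 82.3% of the summed TPM of a library, *Jun* 9.08% to 15.1% and *Junb* 5.97% to 31.0%. Within the Fos family, *Fosl2* held 41.9% to 74.1% and *Fos* 23.5% to 51.7%. For none of these shares were the genotypes separated. WT library 2, lowest in *Fos* TPM, had the highest share of *Fosl2*.

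Genes with a pattern like that of *Fos* were sought among the 12131 other tested genes whose log2 CPM averaged 2 or more, by the root mean square difference of mean-centred log2 CPM over the 8 libraries. The 4 nearest were *Nfkbiz* (0.222), *Bcl3* (0.247), *Ifit1* (0.260) and *Pim1* (0.285), where the median over all genes compared was 1.23. *Nfkbiz* and *Bcl3* encode nuclear IκB proteins, *Ifit1* an interferon-induced protein and *Pim1* a kinase induced by cytokines. *Nfkbiz* had 53.7, 319, 157 and 92.7 CPM in Thra1PV/+ libraries 1 to 4 and 93.3, 18.6, 223 and 235 CPM in WT libraries 1 to 4. The extremes were again Thra1PV/+ library 2 and WT library 2. Nearest to *Egr1* were *St5* (0.164), *Slc20a1* (0.193), *Wsb1* (0.203) and *Gm45551* (0.213), beside a median of 0.618. Nearest to *Atf3* were *Dusp10* (0.358), *Pde4b* (0.505), *Exoc3l4* (0.508) and *Dusp1* (0.540), beside a median of 1.27. *Dusp1* and *Dusp10* encode phosphatases that switch off stress kinases. None of these 12 genes was called.

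Cell type markers moved over the same libraries. The 8 stroma genes summed to 3409, 529, 947 and 1240 CPM in Thra1PV/+ libraries 1 to 4 and 3698, 3991, 1530 and 1627 CPM in WT libraries 1 to 4, with *Col1a1* the most abundant. The 6 simple epithelium genes, with *Krt8* most abundant, summed to 1929, 3831, 4704 and 3438 CPM in Thra1PV/+ libraries 1 to 4 and 1872, 2441, 4935 and 5037 CPM in WT libraries 1 to 4. WT library 2 and Thra1PV/+ library 1, the libraries with the lowest member values, were thus among the 3 highest in stroma genes and the 3 lowest in simple epithelium genes, and Thra1PV/+ library 2, with high *Fos*, was lowest in stroma genes. WT library 1, the library rich in smooth muscle genes, had nearly as much stroma signal as WT library 2. Its *Jun*, *Jund* and *Atf3* were the highest of all. Its *Fos* (39.0 CPM), *Fosl2* (163 CPM) and *Junb* (73.2 CPM) were each among the 3 lowest. The 6 neutrophil genes, with *S100a9* most abundant, summed to 159.8, 722, 295 and 74.7 CPM in Thra1PV/+ libraries 1 to 4 and 33.0, 7.93, 12.3 and 127 CPM in WT libraries 1 to 4, so Thra1PV/+ library 2 was highest and WT library 2 lowest, as for *Fos*. No listed gene of these 3 types was at 0 in a library. The part of cell type makeup in the member values was not tested.

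**Figure D4:**
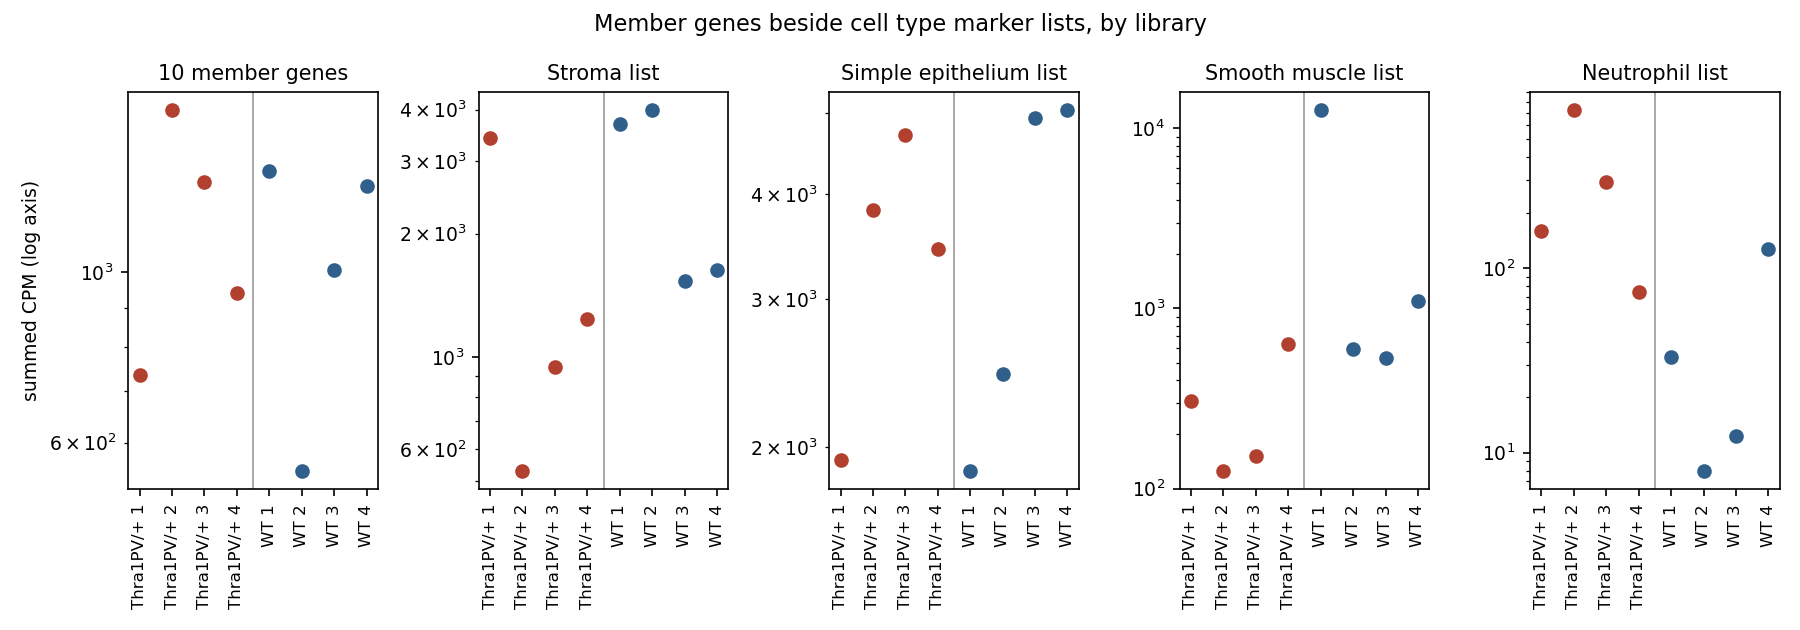
Points are summed CPM (vertical log axis, each panel on its own scale) of the 10 members and of 4 cell type marker lists in the 4 Thra1PV/+ (red) and 4 WT (blue) libraries. WT library 1 stands apart in smooth muscle genes, and the 3 libraries highest in stroma genes are the 3 lowest in simple epithelium genes.

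The other marker lists bear on the makeup of the genotypes. Of the 8 squamous epithelium genes, 7 were called, each higher in Thra1PV/+, led by *Krt5* (1461 ± 446 CPM in Thra1PV/+ and 8.48 ± 7.30 CPM in WT, SD, n = 4 each, log2 fold change 7.43, standard error 1.10, edgeR adjusted p = 0.0268). The other called genes were *Krt14*, *Krt15*, *Trp63*, *Krt13*, *Dsg3* and *Ivl*. The Thra1PV/+ libraries carried these squamous transcripts, and the member genes overlapped between genotypes. The part of squamous content in the member values was not tested. No gene was called on the other 10 marker lists. At an unadjusted p-value under 0.05, 1 of 8 stroma, 6 of 6 smooth muscle and 2 of 5 blood genes were lower. At that p-value, 4 of 6 neutrophil, 4 of 5 T cell and 3 of 4 tested B and plasma cell genes were higher. Over all 18174 tested genes, 858 were lower and 917 higher at that p-value. Of the 5 uterine gland genes, *Prss29* and *Spink1* had too few counts to be tested. Without WT library 1, 1 of 6 smooth muscle and 0 of 5 blood genes were lower at that p-value, and 1 of 6 neutrophil genes, 4 of 5 T cell genes and 2 of 4 B and plasma cell genes were higher. Median log2 fold changes were −0.06 for simple epithelium, 0.19 for uterine gland, −0.83 for stroma, −4.31 for smooth muscle, −0.09 for endothelium and −1.78 for blood. Without WT library 1 they were −0.25, 0.10, −0.73, −1.66, 0.12 and −0.63 in the same order. For immune cells they were 0.18 for macrophages, 2.02 for neutrophils, 1.39 for T cells and 2.16 for B and plasma cells, and 0.44, 2.01, 1.72 and 2.20 without WT library 1.

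Heat shock genes encode chaperones and respond to stress through another factor, HSF1. Of 15 genes on this list, 2 were called higher in Thra1PV/+ and 0 lower, 7 had an unadjusted p-value under 0.05 (all higher), and 4 showed no overlap between genotypes (all higher). Over all tested genes the shares were 0.924% called higher, 9.77% with an unadjusted p-value under 0.05 in either direction and 3.55% higher without overlap, and the difference from these shares was not tested. The median log2 fold change was 0.57, beside −0.05 over all tested genes. Of the list, 14 of 15 values were positive, beside 7843 of 18174 tested genes. *Dnajb1*, a co-chaperone of Hsp70, had 117, 129, 158 and 144 CPM in Thra1PV/+ libraries 1 to 4 and 73.6, 59.6, 57.2 and 73.8 CPM in WT libraries 1 to 4. All 4 Thra1PV/+ libraries were above all 4 WT libraries, with a log2 fold change of 1.05 (standard error 0.15, edgeR adjusted p = 0.0211). *Hspa1a*, an inducible Hsp70 gene, had 92.6, 119.6, 116 and 99.4 CPM in Thra1PV/+ libraries 1 to 4 and 49.7, 13.4, 32.3 and 29.6 CPM in WT libraries 1 to 4. Again no library overlapped, and the log2 fold change was 1.77 (standard error 0.35, edgeR adjusted p = 0.0861). Its near-identical copy *Hspa1b* had 503 ± 179 CPM in Thra1PV/+ and 150.1 ± 69.7 CPM in WT (SD, n = 4 each, log2 fold change 1.74, edgeR adjusted p = 0.167), and how reads were divided between the copies is uncertain. *Hspb1*, a small heat shock protein, had a log2 fold change of 1.51 (edgeR adjusted p = 0.246).

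The 2 heat shock calls were less firm than their folds. *Dnajb1* fell just short of a fold change of 2 without Thra1PV/+ library 3 (log2 fold change 0.98, adjusted p = 0.0966), and *Hspa1a* was called in 2 of the 8 fits with a library left out (without WT library 1 or 2), with adjusted p-values from 0.0406 to 0.249 and log2 fold changes from 1.55 to 2.13. The number of heat shock calls was 0 without Thra1PV/+ library 3 and 1 without Thra1PV/+ library 2 or 4 or WT library 3 or 4. It was 1 with at least 10 counts required in every library and 3 without WT library 1. With limma voom it was 5. With DESeq2, which made more wrong calls than edgeR on simulated data, it was also 5. The difference between this list and the members was not tested.

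**Figure D5:**
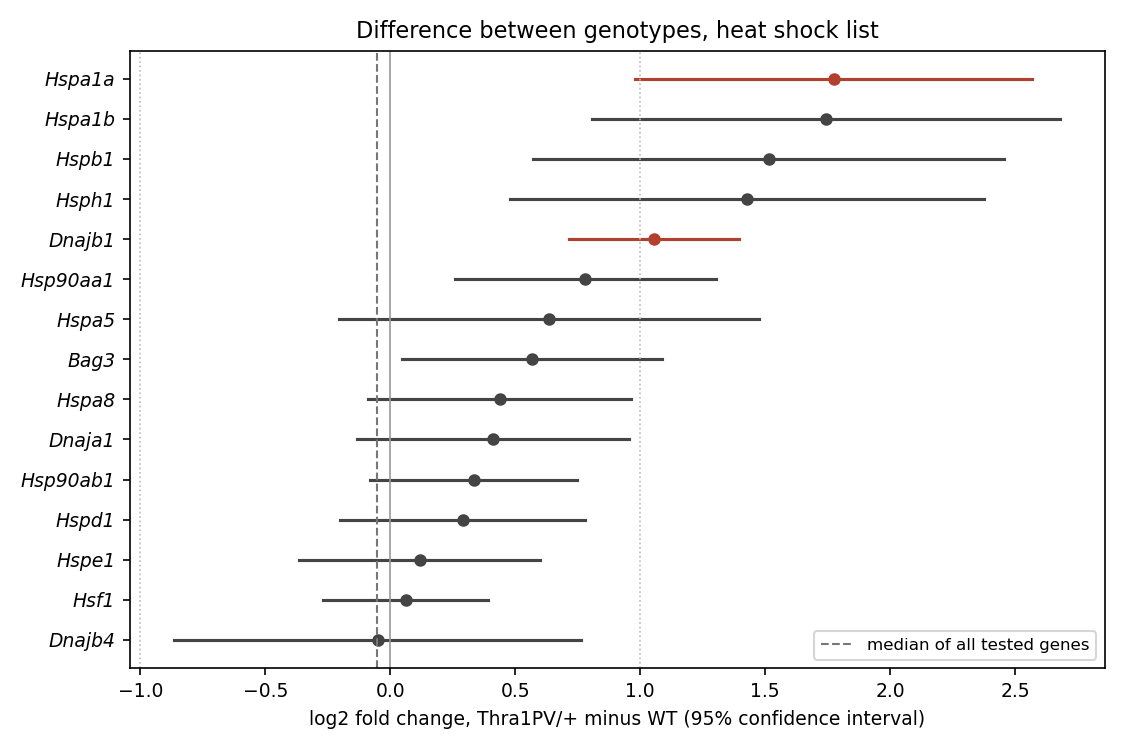
Points are log2 fold changes of the 15 heat shock genes (horizontal axis, Thra1PV/+ minus WT, edgeR) and lines their 95% confidence intervals; red marks the 2 called genes, the dashed line the median of all tested genes and the dotted lines a fold change of 2. All but Dnajb4 lie above 0.

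The remaining lists cover genes that act with or after the members. Of 36 other immediate-early genes, 0 were called, 3 had an unadjusted p-value under 0.05 higher and 3 lower (6 higher and 1 lower without WT library 1), and the median log2 fold change was 0.13. The median SD within a genotype was 0.759. *Klf10*, a TGF-beta-induced repressor, had 55.1, 74.2, 64.5 and 41.3 CPM in Thra1PV/+ libraries 1 to 4 and 31.3, 28.5, 34.1 and 35.8 CPM in WT libraries 1 to 4. The genotypes did not overlap, but the log2 fold change of 0.86 (standard error 0.19, edgeR adjusted p = 0.127) was under the thresholds. *Ccn2*, a matricellular growth factor, had 29.6 ± 14.1 CPM in Thra1PV/+ and 113 ± 52.9 CPM in WT (SD, n = 4 each), a log2 fold change of −1.94 (standard error 0.48, edgeR adjusted p = 0.193). For *Zfp36l1*, an RNA decay factor, it was 0.50 (adjusted p = 0.352). *Arc* had 13.0 ± 16.4 CPM against 2.16 ± 1.55 CPM (adjusted p = 0.409), with Thra1PV/+ library 2 at 37.3 CPM far above the rest; its log2 fold change of 2.58 was 1.17 without Thra1PV/+ library 2.

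Dimer partners and cofactors showed no calls either. Among 19 tested AP-1 and bZIP partners of 21 listed, 0 were called, 3 had an unadjusted p-value under 0.05 higher and 1 lower (1 higher and 1 lower without WT library 1). *Atf5* was the lower gene, with 65.2, 50.7, 66.7 and 48.8 CPM in Thra1PV/+ libraries 1 to 4 and 98.3, 95.01, 96.9 and 83.3 CPM in WT libraries 1 to 4. All 4 WT libraries were above all 4 Thra1PV/+ libraries, and the log2 fold change was −0.69 (standard error 0.14, edgeR adjusted p = 0.106). *Batf* had a log2 fold change of 0.86 (adjusted p = 0.493) and *Jdp2*, which dimerizes with Jun proteins, of 0.72 (adjusted p = 0.511), or 0.32 without Thra1PV/+ library 2. On the list of Egr relatives and corepressors, 0 of 4 tested genes were called and 0 had an unadjusted p-value under 0.05. *Egr3* (−0.27), *Nab1* (−0.15), *Nab2* (0.13) and *Wt1* (−1.12 on the log2 scale) had adjusted p-values from 0.667 to 0.936. The values of *Wt1* were highest in WT library 1, at 144 CPM, and its log2 fold change was −0.37 without that library and −1.85 without Thra1PV/+ library 1. Without WT library 1 that of *Nab1* was −0.25, that of *Nab2* 0.50 and that of *Egr3* −0.12. *Egr3* turned to 0.10 without WT library 4, *Nab2* turned to −0.05 without Thra1PV/+ library 1, and *Nab1* was −0.04 without Thra1PV/+ library 4.

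Upstream of the members, 0 of 30 tested kinases and SRF partners were called, with 0 higher and 2 lower at an unadjusted p-value under 0.05 and a median log2 fold change of −0.09 (−0.02 without WT library 1). *Map2k6*, a p38 kinase activator, had 13.1, 17.5, 16.1 and 16.1 CPM in Thra1PV/+ libraries 1 to 4 and 18.9, 24.6, 59.5 and 27.9 CPM in WT libraries 1 to 4. The Thra1PV/+ libraries lay below all WT libraries, with a log2 fold change of −1.06 (standard error 0.34, edgeR adjusted p = 0.352), or −0.58 without WT library 3. For *Mapk3*, which encodes ERK1, it was −0.34 (adjusted p = 0.508), for *Mrtfb* −0.39 (adjusted p = 0.584; −0.24 without WT library 3), and for *Srf* −0.71 (adjusted p = 0.586). *Srf* and its coactivators drive contractile genes, and its highest value, 236 CPM, was in WT library 1; without that library its log2 fold change was −0.14. Among 17 tested genes of MAP kinase feedback, 0 were called, with 0 higher and 2 lower at an unadjusted p-value under 0.05 (2 higher and 2 lower without WT library 1). *Spry2*, an inhibitor of growth factor signalling, had 27.6 ± 2.18 CPM in Thra1PV/+ and 39.8 ± 4.83 CPM in WT (SD, n = 4 each), a log2 fold change of −0.53 (standard error 0.13, edgeR adjusted p = 0.183) with no overlap between genotypes. Values for its relatives were −0.48 for *Spred1*, −0.59 for *Spry4* and −0.75 for *Spry1*, with adjusted p-values of 0.388, 0.517 and 0.561. *Spry1* was −0.27 without WT library 1.

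Downstream, 1 of 19 tested AP-1 target genes was called. That gene was *Ivl*, involucrin of cornified squamous epithelium, which the squamous marker list also holds, with 7.93, 18.1, 13.6 and 11.9 CPM in Thra1PV/+ libraries 1 to 4 and at most 0.0419 CPM in a WT library (edgeR adjusted p = 0.00143). *Mmp10*, a stromelysin, had a log2 fold change of −2.23 (adjusted p = 0.196), *Tgfb1* of 0.70 (adjusted p = 0.341) and *Cd44*, the hyaluronan receptor, of 1.29 (adjusted p = 0.413). The median over the 19 was 0.19. Of 11 genes of the integrated stress response, 0 were called and 4 had an unadjusted p-value under 0.05, all higher, beside 917 higher of 18174 tested genes. The median log2 fold change was 0.41. Without WT library 1, 0 of the 11 had an unadjusted p-value under 0.05. *Ddit4* (0.93), *Chac1* (2.92), *Ddit3* (0.53) and *Cdkn1a* (1.41 on the log2 scale) were those genes, with adjusted p-values from 0.458 to 0.509. *Chac1* was 1.75 without Thra1PV/+ library 2. For each of the 11, the genotypes overlapped. Among the up to 4 genes named from each pathway list by p-value, DESeq2 called *Ccn2*, *Arc*, *Mmp10* and the heat shock genes *Hspa1b* and *Hspb1*. The main edgeR fit called none of these. With limma voom, *Mmp10*, *Hspa1b* and *Hspb1* were also called (limma voom adjusted p = 0.0836, 0.0317 and 0.0298). In edgeR, *Hspa1b* was called on library size alone and *Hspb1* without WT library 1. Fits of limma on log2 TPM also called *Hspa1b*.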

How the data were processed

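RNA was measured in laser-captured endometrium of 4 WT and 4 Thra1PV/+ mice. The authors trimmed paired-end reads of stranded mRNA libraries with Trimmomatic and made the deposited estimated counts per gene with salmon on mm10; the salmon version and annotation release are not given in the sources used here. The deposited TPM values were made by the authors from the same salmon output and are quantile-normalized between libraries, a step that is not described (the largest gap at any rank was 0.291). A column of that table that belongs to none of the 8 libraries (1 column) was not used.

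Estimated counts were rounded and tested with edgeR 4.0.16 (TMM, filterByExpr with a minimum count of 10 and a minimum total of 15, quasi-likelihood F-test, Benjamini-Hochberg over 18174 genes) in R 4.3.3, with DESeq2 1.42.0 and limma 3.58.1 as alternatives. Log2 CPM used a prior count of 2. Other alternatives were further normalizations, filters, log2 TPM, and leaving out each library. Every fit was tested on simulated data, where DESeq2 made more wrong calls than edgeR. Sequence matching and figures used Python 3.11.15. Of 52325 identifiers, 52220 matched a symbol in GENCODE M21 (GRCm38), and 16271 tested identifiers had the same version.

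The members and the 19 other gene lists (8 of pathways, 11 of cell type markers) were chosen with earlier results of these data known. Genes named are the members, up to 4 per pathway list (called genes first, then the smallest p), the most abundant and any called gene of a marker list, and the 4 genes nearest to *Fos*, *Egr1* and *Atf3* in pattern. A gene that this rule takes from the list of AP-1 and bZIP partners is not reported here.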

Additional observations from a re-analysis of the deposited data

Results flagged for a closer look

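A value was set apart when its gap to the nearest library of its genotype, divided by the range of the 4 libraries, was above 0.829. Of 82 groups of 4 libraries looked at, 4 had such a value, and chance flags about 1 in 20 groups (4.1 of 82).

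*Egr1* in Thra1PV/+ library 2 was far above the other 3 Thra1PV/+ libraries (ratio 0.958; log2 CPM 6.33, others 5.46 to 5.49). *Wt1* was high in Thra1PV/+ library 1 (ratio 0.864; log2 CPM 6.10, others 4.07 to 4.35). *Nab1* was low in WT library 1 (ratio 0.907; log2 CPM 5.48, others 6.15 to 6.22). *Nab2* was high in Thra1PV/+ library 1 (ratio 0.885; log2 CPM 5.79, others 5.02 to 5.11). Of these 4 values, 2 were in Thra1PV/+ library 1. Their causes were not tested.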

How the results depend on the processing

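No member was called, and none had an unadjusted p-value under 0.05, under any alternative. With at least 10 counts in every library, 9 members were tested, without *Fosl1*. Of the single-gene log2 fold changes of members under alternatives, 168 kept their direction and 11 changed sign. Of those of listed genes, 532 kept their direction and side of the thresholds, 12 gained and 10 lost a call, and 2 changed sign.

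The number of genes called, 180, became 81 with at least 10 counts in every library and 311 with voom. With DESeq2, where 29984 genes were tested and which made more wrong calls than edgeR on simulated data, it was 791. At an unadjusted p-value under 0.05 and with no fold change threshold it was 1775. With a library left out it ranged from 81 to 167. The number of heat shock genes called, 2, became 5 with DESeq2, 1 with at least 10 counts in every library and 5 with voom. At an unadjusted p-value under 0.05 and with no fold change threshold, 7 passed. With a library left out the number called ranged from 0 to 3. Other than where fewer libraries or genes were tested, the cause was not tested.

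With a replicate block, 82 genes and 0 heat shock genes were called, and *Fosb* had a log2 fold change of 0.11. Libraries with the same number did not deviate together (r = 0.269, −0.436, 0.340 and −0.159), and 1 of 4 correlated best with its own number.

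With each library left out, log2 fold changes ran from −0.17 to 0.81 for *Fos* (−0.02 without WT library 2), from −1.08 to 0.14 for *Fosb*, from −0.83 to 1.93 for *Fosl1* (−0.06 without WT library 2), from −0.25 to 0.20 for *Jun* (0.05 without Thra1PV/+ library 1), from −0.41 to 0.0626 for *Jund*, from −0.0286 to 0.53 for *Egr1*, from −0.54 to 0.10 for *Egr3* and from −0.0489 to 0.50 for *Nab2*. With voom, *Jun* had 0.0587.

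The heat shock counts, the medians of the members and of the heat shock list, the other list values without WT library 1 and the r values under alternatives were added after seeing the data. With a library left out, r with *Fos* ran from 0.908 to 0.986 for *Fosl2*, from 0.863 to 0.967 for *Junb*, from 0.852 to 0.964 for *Fosl1*, from 0.689 to 0.939 for *Egr2*, from 0.411 to 0.878 for *Egr1*, from 0.237 to 0.859 for *Atf3*, from 0.354 to 0.862 for *Jund*, from 0.280 to 0.693 for *Jun* and from 0.196 to 0.707 for *Fosb*. On library size alone, r with *Fos* was 0.705 for *Egr1*, 0.477 for *Jund* and 0.205 for *Jun*. On log2 TPM with a pseudocount of 1, r with *Fos* fell to 0.795 for *Fosl1*, 0.387 for *Jund* and 0.256 for *Jun*. On that scale it rose to 0.519 for *Fosb*. The cause was not tested.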
